A study of Homo sapiens and Mus musculus with 26 samples.

Results

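The mRNA found on polyribosomes was compared between MHCC97H cells with a knockdown of METTL1 and control MHCC97H cells, a human hepatocellular carcinoma line. The comparison takes the 6 polysome libraries of the series' 26 samples: 3 of cells carrying the short hairpin RNA shMETTL1-2, labelled as Mettl1 knockdown, and 3 of cells labelled NC and wild type. All were chosen by their labels alone, and the same cells' input RNA libraries were left out. Both groups are the same line grown in DMEM, and 1 hairpin stands for the knockdown. The labels do not state whether repeats are separate cultures; a p-value here weighs a difference against the spread of the libraries, part or all of which may be technical. The study set out to find genes translated differently when METTL1 is depleted.

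METTL1 is the catalytic subunit, and WDR4 the partner subunit, of the enzyme that places N7-methylguanosine (m7G) in the variable loop of a subset of tRNAs. The mark protects these tRNAs and is known to support their stability and the translation of mRNAs rich in the codons they read. Polysomes are mRNAs carrying several ribosomes, so mRNA in that fraction is taken as mRNA being translated. A gene's level there depends both on how much of its mRNA the cells hold and on how much of that mRNA is loaded with ribosomes, and these cannot be told apart from polysome libraries alone.

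The table lists 8074 genes in FPKM (fragments per kilobase of gene, scaled to library depth), each at 1 FPKM or more in all 6 libraries, so genes that fell below this level are not seen. The listed genes summed to between 482334 and 659508 FPKM per library. FPKM is relative within a library, so a change in total polysome RNA per cell would not show. Of the marker genes checked, 2 of 4 epithelial (KRT8 and KRT18) and 3 of 15 hepatocyte genes (FGA and HNF4A among them) were in the table, with 2 of 12 leukocyte, 0 of 8 endothelial and 0 of 11 fibroblast markers. Repeat 1 stood apart in both groups. The standard deviation of the log2 difference between 2 repeats, across genes, was 0.106 between control repeats 2 and 3 and 0.143 between knockdown repeats 2 and 3, but 0.464 to 0.656 for pairs that included repeat 1. Differences below are on the log2(FPKM + 1) scale, knockdown minus control, and values per library are given in the order of repeats 1, 2 and 3. A gene is called higher or lower at an adjusted p of 0.05 in limma, with Benjamini-Hochberg adjustment over all 8074 genes.

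METTL1 (chr12:57768471-57772105, GRCh38) was at 45.3, 43.8 and 38.2 FPKM in the control libraries and 8.29, 22.9 and 25.6 FPKM in the knockdown libraries. Each knockdown library was below each control library, with repeat 1 of the knockdown lowest. The mean was 42.4 ± 3.75 FPKM (SD, n = 3) in the control and 18.9 ± 9.30 FPKM (SD, n = 3) in the knockdown libraries, a 2.24-fold lower level. The difference of -1.26 (SE 0.39, limma adjusted p = 0.0765) did not pass the threshold, and did with the repeat number as a block (adjusted p = 0.0141). Without knockdown repeat 1 it was smaller and passed, at -0.78 (limma adjusted p = 0.00881), and it was -0.73 without repeat 1 in both groups. With any other single library left out the METTL1 difference did not pass (limma adjusted p = 0.0935 to 0.198). WDR4, the partner subunit, was at 15.8, 16.5 and 17.4 FPKM in the control libraries and 18.4, 17.8 and 18.5 FPKM in the knockdown libraries, a difference of 0.13 (SE 0.11, limma adjusted p = 0.484). For scale, 5% of all genes lay below -0.96 and 5% above 0.48, so that the METTL1 value was among the lowest and the WDR4 value was not.

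The calls were mostly falls, while the signs over all genes were nearly even, with 4278 genes below 0 and 3796 above. limma called 1117 genes (13.8%), of which 1029 were lower (12.7%) and 88 higher (1.09%), so that 92.1% of the calls were falls. The median difference was -0.83 among genes called lower, 0.58 among those called higher and -0.03 over all genes. A fall of at least 1 was called for 286 genes and a rise of that size for 8. Without a model, the 3 knockdown libraries lay wholly below the 3 control libraries in 2141 genes (26.5%) and wholly above in 1106 (13.7%), together 3247 (40.2%), and all 1117 called genes were among them. With the repeat number as a block, limma called 3392 genes (42%), 2257 lower (28%) and 1135 higher (14.1%), and all 1117 were among these with the same sign. These shares of 28% lower and 14.1% higher are the background for the block counts of the lists below. After quantile normalization 7.44% of all genes were called lower and 3.73% higher. The one-sidedness depended on the scaling: 66.2% of 657 calls were falls when each library was shifted to an equal median, and 66.6% of 902 after quantile normalization, which move the median of all genes by 0.17 and 0.10. With the block and quantile normalization together, 46.6% of 3751 calls were falls.

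The number of calls rested on single libraries. It was 0 without control repeat 2, without control repeat 3 or without knockdown repeat 3 (1794, 1875 and 1776 genes at an unadjusted p under 0.05 in limma). It was 563 without control repeat 1, 584 without knockdown repeat 2 and 2551 without knockdown repeat 1. With the close repeats 2 and 3 of each group averaged as 1 sample it was again 0, with 1175 genes at an unadjusted p under 0.05, and the smallest adjusted p was 0.223. The calls that follow are those of the 6 libraries taken as 3 against 3, without pairing by repeat number. Among genes named here as called, BNIP3L, CCNA2, CCNG1, COX5B, CYCS, EEF1E1, EIF1AX, EIF2A, EIF2S1, EIF2S3, EIF4G2, EZH2, FASTKD5, HMGCS1, HSPB1, KDM3A, LRPPRC, MRPL19, NDUFA3, NRAS, P4HA1, PDCD4, PDK1, PIK3C2A, PMAIP1, PPP1R15B, PSMD5, PUS7, RAB5A, RAB6A, SDHD, TUBD1, UBE2Q2 and UBE2V2 were not called under either of the other 2 scalings.

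**Figure D1:**
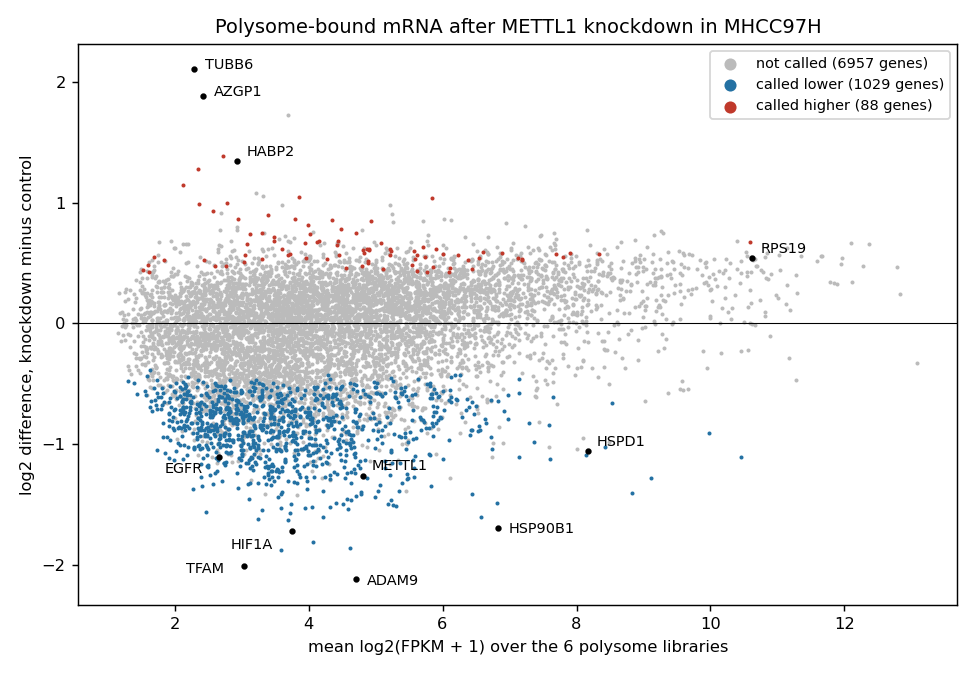
Each point is 1 of 8074 genes, with the mean log2(FPKM + 1) over the 6 polysome libraries on the x axis and the log2 difference, knockdown minus control, on the y axis. Blue points are the 1029 genes called lower and red points the 88 called higher; the black labelled points were called except METTL1 and RPS19. Falls reach past -2 and spread over low and middle levels, while the most abundant genes lie mostly above 0.

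The repeats shared the direction of most differences. In 5563 genes (68.9%) the difference had the same sign in all 3 same-numbered pairs, below 0 in 3114 and above 0 in 2449. The differences of repeats 2 and 3 were close (Pearson's r 0.939), and those of repeat 1 less so (0.689 with repeat 2, 0.750 with repeat 3). Of 4745 genes below 0 in the mean of repeats 2 and 3, 69.2% were below 0 in repeat 1. Of 3329 above 0, 84.3% were above 0 in repeat 1. Of the 100 genes lowest in the mean of repeats 2 and 3, all 100 were also below 0 in repeat 1, with a median of -1.39 there against -1.33. Of the 100 highest, 94 were above 0 in repeat 1, with a median of 0.48 against 0.77. A fall of at least 1 in every pair was seen in 139 genes (1.72%). A rise of that size in every pair was seen in 4 (0.0495%), namely AMBP, ACY3, AZGP1 and HABP2, genes known to be expressed in liver or kidney.

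**Figure D2:**
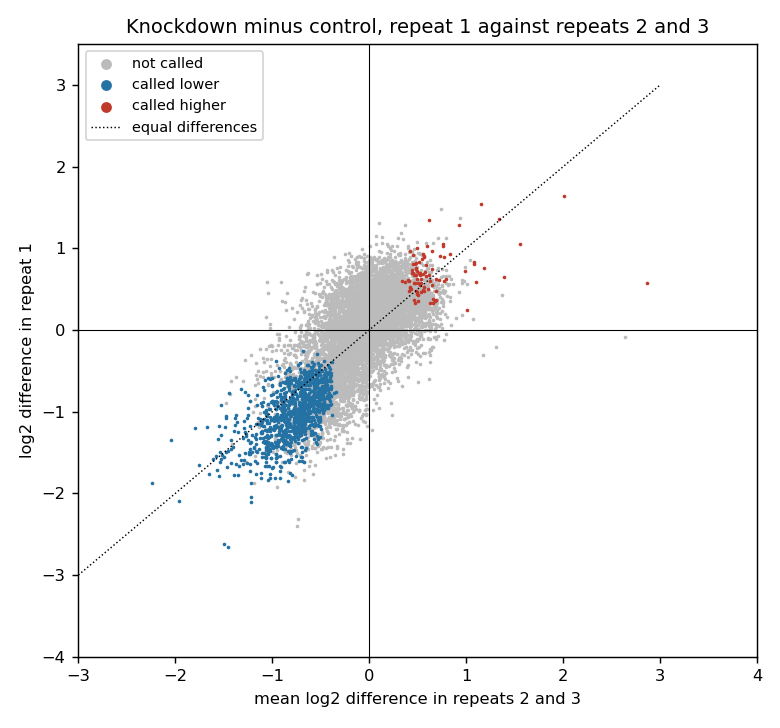
For each of 8074 genes, the log2 difference in repeat 1 (y axis) is plotted against the mean log2 difference in repeats 2 and 3 (x axis), both knockdown minus control. Blue and red points are genes called lower and higher, and the dotted line marks equal differences. The called genes sit in the lower left and upper right corners, since all of them had the same sign in the 3 repeats.

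Among the 12 largest falls were a sheddase, a mitochondrial DNA factor and the master transcription factors of the hypoxia and oxidative stress responses. ADAM9 (chr8:38996973-39105261), a membrane metalloprotease that sheds growth factors from the cell surface, was at 64.8, 48.2 and 48.2 FPKM in the control libraries and 16.96, 9.47 and 9.36 FPKM in the knockdown libraries. This was a 4.51-fold lower mean and a difference of -2.12 (SE 0.25, limma adjusted p = 0.0076). TFAM (chr10:58385410-58399220), which packages mitochondrial DNA and starts its transcription, was at 18.6, 15.2 and 12.9 FPKM in the control libraries and 3.58, 2.98 and 2.74 FPKM in the knockdown libraries, a difference of -2.004 (SE 0.17, limma adjusted p = 0.00737). In both genes the highest knockdown library was far below the lowest control library. B4GALT4, a Golgi galactosyltransferase, was at 20.8, 23.1 and 22.1 FPKM in the control libraries and 2.54, 7.39 and 7.32 FPKM in the knockdown libraries (-1.87, adjusted p = 0.0165). PBDC1 was at 45.2, 47.2 and 44.6 FPKM in the control libraries and 6.33, 16.2 and 15.9 FPKM in the knockdown libraries (-1.86, adjusted p = 0.0161). In these 2 genes repeat 1 of the knockdown was the lowest library by more than 2-fold.

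NFE2L2 (chr2:177230303-177264727) encodes NRF2, the transcription factor of the oxidative stress response. It was at 30.02, 30.9 and 30.4 FPKM in the control libraries and 11.2, 7.02 and 6.35 FPKM in the knockdown libraries, a difference of -1.81 (SE 0.20, limma adjusted p = 0.0076). HIF1A (chr14:61695513-61748258), the oxygen-regulated subunit of the hypoxia transcription factor, was at 20.9, 25.1 and 24.6 FPKM in the control libraries and 5.96, 6.53 and 6.78 FPKM in the knockdown libraries, a difference of -1.72 (SE 0.13, limma adjusted p = 0.00737). Both groups were tight for HIF1A, with means of 23.5 ± 2.29 and 6.42 ± 0.420 FPKM (SD, n = 3 each). The remaining falls in this set were the endoplasmic reticulum chaperone HSP90B1 (-1.69, adjusted p = 0.0124), the heat shock protein HSPH1 (-1.63, adjusted p = 0.00765), the cytokinesis exchange factor ECT2 (-1.62, adjusted p = 0.00737), the RNA-binding protein FXR1 (-1.60, adjusted p = 0.00737), the annexin ANXA10 (-1.60, adjusted p = 0.0202) and the zinc transporter SLC39A6 (-1.57, adjusted p = 0.00737). HSP90B1 was the most abundant of them, at 151, 237 and 231 FPKM in the control libraries and 44.03, 74.2 and 72.99 FPKM in the knockdown libraries.

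Receptors and kinases of growth factor signalling fell in part. EGFR (chr7:55019017-55211628), the epidermal growth factor receptor, measured 7.79, 8.50 and 8.53 FPKM in the control libraries and 3.09, 3.43 and 3.39 FPKM in the knockdown libraries. It fell 2.5-fold in the mean, a difference of -1.11 (SE 0.11, limma adjusted p = 0.00737), with little spread in either group. Of the 31 listed growth factor receptor and MAPK pathway genes, 9 were called lower and 1 higher (13 lower and 2 higher with the block), and the list median was -0.19. The share called was 32.3%, against 13.8% of all genes. Relative to genes of like genomic span the list median was -0.11. EREG, an EGFR ligand, was at 13.7, 16.4 and 16.9 FPKM in the control libraries and 5.72, 5.87 and 5.86 FPKM in the knockdown libraries (-1.29, adjusted p = 0.00737). RPS6KA3, a kinase activated by ERK, was at 17.9, 20.4 and 19.5 FPKM in the control libraries and 6.55, 7.63 and 7.43 FPKM in the knockdown libraries (-1.31, adjusted p = 0.00737). Also called lower were the receptor MET (-1.28), the sheddases ADAM9 and ADAM10 (-1.32), the exchange factor SOS1 (-0.73) and the small GTPase NRAS (-0.58). The only one called higher was the receptor ERBB3, at 4.34, 4.20 and 3.99 FPKM in the control libraries and 6.19, 6.18 and 6.21 FPKM in the knockdown libraries (0.48, adjusted p = 0.0315).

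VEGFA, the vascular growth factor, was at 12.2, 10.6 and 10.9 FPKM in the control libraries and 12.1, 6.01 and 7.05 FPKM in the knockdown libraries. Repeat 1 of the knockdown was level with the controls while repeats 2 and 3 were lower, and the difference of -0.44 (SE 0.24, limma adjusted p = 0.264) did not pass. Without knockdown repeat 1, a setting in which 2551 genes were called, it was -0.70 and passed (limma adjusted p = 0.0119). With any other single library left out the VEGFA difference did not pass (limma adjusted p = 0.387 to 0.535). CCNA2, the S and G2 phase cyclin, was at 33.5, 25.2 and 23.9 FPKM in the control libraries and 19.1, 15.3 and 14.9 FPKM in the knockdown libraries and fell by 0.70 on the log2 scale (SE 0.18, limma adjusted p = 0.0441), a call not made with equal medians or quantile normalization (adjusted p = 0.0622 and 0.0612).

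**Figure D3:**
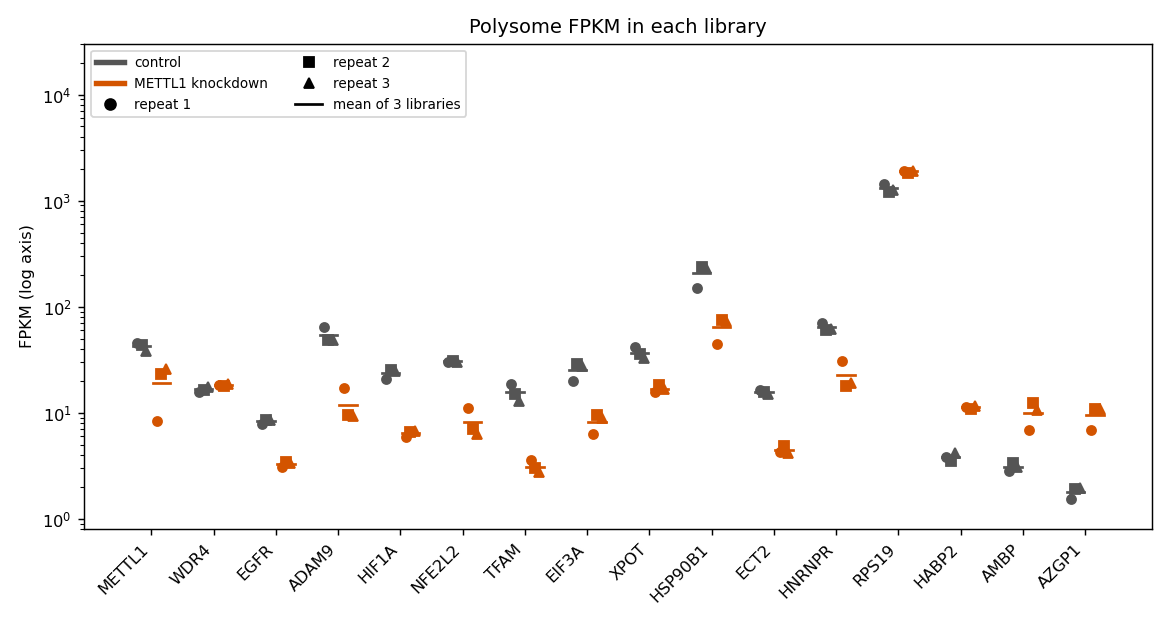
FPKM of 16 genes in each of the 6 polysome libraries, on a log axis: grey for control, orange for METTL1 knockdown, with circles, squares and triangles for repeats 1, 2 and 3 and short lines for the mean of 3 libraries. From EGFR to HNRNPR every knockdown symbol lies below every control symbol. RPS19, HABP2, AMBP and AZGP1 lie the other way, as does WDR4 by a small margin, and METTL1 is low in all 3 knockdown libraries.

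Some other hypoxia genes also fell. Of 21 listed, 6 were called lower and 0 higher (9 lower and 0 higher with the block, 2 lower and 0 higher after quantile normalization), and the median was -0.32. Called members made up 28.6% of the list, against 13.8% of all genes. These genes have a median genomic span of 45453 bases, against 26431 for all genes. Relative to genes of like span the list median was -0.16. EGLN1, the prolyl hydroxylase that marks HIF1A for degradation, was at 27.7, 25.9 and 26.2 FPKM in the control libraries and 11.4, 13.5 and 11.9 FPKM in the knockdown libraries (-1.06, adjusted p = 0.0076). P4HA1, a collagen prolyl hydroxylase, was at 7.64, 6.56 and 6.43 FPKM in the control libraries and 3.67, 4.03 and 4.44 FPKM in the knockdown libraries (-0.64, adjusted p = 0.0219). The remaining calls were PDK1, KDM3A and BNIP3L, at -0.49, -0.66 and -0.53. The median of 30 oxidative stress genes was 0.04 (0.22 with equal medians, -0.17 after quantile normalization). Among them 5 were called lower and 0 higher (7 lower and 4 higher with the block). Besides NFE2L2, these were ME1, a malic enzyme that makes NADPH, at 62.8, 47.2 and 47.8 FPKM in the control libraries and 25.98, 18.4 and 16.6 FPKM in the knockdown libraries (-1.34, adjusted p = 0.0115), GCLC and GCLM, the 2 subunits of the first enzyme of glutathione synthesis (-0.96 and -0.82), and the mitochondrial peroxiredoxin PRDX3 (-0.92). The calls were 16.7% of the list, near the 13.8% of all genes.

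Initiation factors fell in part. Of 45 translation initiation factors 13 were called lower and 0 higher (21 lower and 5 higher with the block), a median of -0.28 (-0.11 with equal medians, -0.38 after quantile normalization). The share called was 28.9%, against 13.8% of all genes. EIF3A, the largest subunit of the factor that holds the small ribosomal subunit, was at 20.1, 28.7 and 27.8 FPKM in the control libraries and 6.27, 9.43 and 8.93 FPKM in the knockdown libraries, a difference of -1.53 (SE 0.21, limma adjusted p = 0.00913). DENR, which helps release and reuse post-termination subunits, was at 68.3, 59.9 and 65.6 FPKM in the control libraries and 30.3, 36.2 and 32.1 FPKM in the knockdown libraries (-0.96, adjusted p = 0.00854). DHX29, a helicase for structured leaders, was at 3.82, 4.55 and 4.35 FPKM in the control libraries and 1.25, 1.52 and 1.72 FPKM in the knockdown libraries (-1.07, adjusted p = 0.0076). Every knockdown library was below every control library for all 3 genes. The other 10 calls included the cap-binding protein EIF4E (-0.73), the scaffolds EIF4G2 (-1.12) and EIF4G3 (-1.09), the recycling ATPase ABCE1 (-1.20), 2 subunits of eIF2, EIF2S1 (-0.65) and EIF2S3 (-0.56), and the poly(A)-binding protein PABPC1 (-0.66). EIF5, EIF1AX and EIF2A made up the rest (-0.88, -0.65 and -1.14).

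Elongation and release factors gave no call among 11 (2 lower and 2 higher with the block, 0 lower and 1 higher after quantile normalization), with a median of 0.00 that was 0.18 with equal medians and -0.06 after quantile normalization. ETF1, the termination factor, was at 44.2, 30.9 and 30.1 FPKM in the control libraries and 24.7, 17.7 and 16.6 FPKM in the knockdown libraries, and did not pass (adjusted p = 0.0534), but did with the block (0.00167) and without knockdown repeat 1 (0.016028). EEFSEC, the elongation factor for selenocysteine, was at 6.90, 7.67 and 7.75 FPKM in the control libraries and 9.80, 10.1 and 12.2 FPKM in the knockdown libraries and did not pass (adjusted p = 0.0661), but did with the block (0.0153), after quantile normalization (0.0349) and without knockdown repeat 1 (0.0278). With any other single library left out, neither ETF1 nor EEFSEC passed (limma adjusted p = 0.114 to 0.233). Of 5 aminoacyl-tRNA synthetase list members, 1 was called (2 lower and 2 higher with the block), 20% against 13.8% of all genes. This was the synthetase complex scaffold EEF1E1, at 26.7, 34.4 and 32.2 FPKM in the control libraries and 18.7, 22.1 and 21.3 FPKM in the knockdown libraries (-0.56, adjusted p = 0.0481).

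Other enzymes that modify tRNA moved little as a list. Of 47, 4 were called lower and 1 higher (14 lower and 6 higher with the block), near the background share, and the median of -0.09 became 0.08 with equal medians and 0.08 after quantile normalization. TRMT10C, a subunit of mitochondrial RNase P that also methylates tRNA, was at 17.01, 20.3 and 22.4 FPKM in the control libraries and 7.15, 9.51 and 10.04 FPKM in the knockdown libraries (-1.08, adjusted p = 0.0128). TRMT6, the non-catalytic partner in the m1A tRNA methyltransferase, was at 23.6, 26.3 and 24.4 FPKM in the control libraries and 13.2, 15.3 and 13.4 FPKM in the knockdown libraries (-0.78, adjusted p = 0.0124). The pseudouridine synthase PUS7 was also called lower (-0.91). CTU2, a subunit of the enzyme that thiolates wobble uridines, was called higher, at 23.8, 23.8 and 24.1 FPKM in the control libraries and 35.9, 30.8 and 36.05 FPKM in the knockdown libraries (0.50, adjusted p = 0.0396). Of 18 subunits of RNA polymerase III, which transcribes tRNA genes, 1 was called, POLR3B, a catalytic subunit, at 7.51, 7.90 and 6.96 FPKM in the control libraries and 1.43, 3.17 and 2.59 FPKM in the knockdown libraries (-1.35, adjusted p = 0.0116). These subunits were called in 5.56% of cases, against 13.8% of all genes, and 3 were lower and 0 higher with the block. Their median was -0.14, and 0.03 and 0.04 under the other scalings.

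Genes that build the ribosome and genes of the ribosome itself stood on opposite sides of 0. Of 79 ribosome biogenesis factors 17 were called lower and 0 higher (40 lower and 7 higher with the block, 11 lower and 0 higher after quantile normalization), with a median of -0.34. Called members made up 21.5% of this list, against 13.8% of all genes. RRP15 was at 16.8, 13.96 and 17.01 FPKM in the control libraries and 4.94, 4.58 and 4.81 FPKM in the knockdown libraries (-1.55, adjusted p = 0.00737), BRIX1 at 52.8, 50.5 and 50.2 FPKM in the control libraries and 20.7, 23.7 and 23.7 FPKM in the knockdown libraries (-1.14, adjusted p = 0.00737), and NOL11 at 32.6, 28.3 and 25.4 FPKM in the control libraries and 10.9, 11.5 and 11.4 FPKM in the knockdown libraries (-1.27, adjusted p = 0.00737). RRP15 and BRIX1 take part in large subunit assembly and NOL11 in early processing of the pre-rRNA. Nucleolin (NCL), the abundant nucleolar RNA-binding protein, was at 259.8, 212 and 226 FPKM in the control libraries and 87.6, 131 and 139 FPKM in the knockdown libraries (-0.98, adjusted p = 0.0258).

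Of 80 cytosolic ribosomal protein genes, none was called in either direction, yet 77 lay above 0 and the median was 0.42. With the block 47 of the 80 were higher and 0 lower, where 14.1% of all genes were higher and 28% lower. The median was 0.16 in repeat 1, 0.58 in repeat 2 and 0.54 in repeat 3, so the size came mostly from the latter 2 repeats, and it was 0.60 with equal medians and 0.15 after quantile normalization. Over all genes these scalings gave medians of 0.14 and 0.07. In 10 bins of mean FPKM over all genes, the highest had a median of 0.26 without them. RPS19, the member with the smallest p, was at 1426, 1215 and 1269.9 FPKM in the control libraries and 1909, 1839 and 1922 FPKM in the knockdown libraries (difference 0.54, limma adjusted p = 0.0917; 0.00559 with the block). The 2 groups did not overlap in this gene. Ribosomal protein genes have many processed pseudogenes, and how the authors assigned shared reads is not given in the sources used here, so these values are uncertain.

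Ribosomal protein mRNAs are known for a start that is a C followed by an unbroken run of pyrimidines, the 5′ terminal oligopyrimidine motif, which ties their translation to mTOR signalling. RefSeq windows (GRCh38.p14) around an annotated start, the first listed where a gene has several, are shown for 5 ribosomal protein genes, those with the smallest p among members with a window, and for 4 of the largest falls, each with 10 bases before the start and 20 from it; capitals mark the pyrimidine run that begins at the start.
RPS19 (chr19:41860245-41860274, plus strand): ccccgtcgttCCCTTTCCCCTggctggcag
FAU (chr11:65122115-65122144, minus strand): tcgcttcttcCTCTTTCTCgactccatctt
RPL36 (chr19:5690285-5690314, plus strand): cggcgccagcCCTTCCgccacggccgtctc
RPL29 (chr3:51995876-51995905, minus strand): cagcccctttCTCTTCCggttctaggcgct
RPS4X (chrX:72277229-72277258, minus strand): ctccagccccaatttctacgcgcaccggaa
TFAM (chr10:58385400-58385429, plus strand): cagatttcccatagtgcctcgctagtggcg
B4GALT4 (chr3:119240859-119240888, minus strand): ctccgcgggcagtgctagctcgccgcggcc
PBDC1 (chrX:76173052-76173081, plus strand): cggtggagccgccagttgagaaggactctg
NFE2L2 (chr2:177264112-177264141, minus strand): ggcgcggcccggcccttccggggctgcgcg

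RPS19, FAU, RPL36 and RPL29 begin with such a run, RPS4X has none at the start RefSeq annotates, and the 4 falls have none. RefSeq gives RPS19 and NFE2L2 a second start each; the one shown for NFE2L2 lies inside its span, downstream of the outermost start. A C at the start and at least 5 unbroken C or T bases on the gene's own strand were found in 44 of 64 ribosomal protein genes with a window (68.8%), in 409 of 6710 listed genes (6.10%) and in 1104 of all 27305 RefSeq symbols with a window (4.04%). Several starts are annotated for 1976 of the 6710 listed genes; counting a run at any of them gave 48 of 64 ribosomal protein genes (75%), 550 listed genes (8.20%) and 1404 symbols (5.14%). Within the ribosomal proteins the median difference was 0.44 for the 44 with the run and 0.42 for the 20 without it. Among initiation, elongation and release factors, 10 of 47 held it (21.3%), with a median of -0.23 against -0.13 for the other 37; with any start it was 11, at -0.10 against -0.19, so the order of these medians depended on the start taken. Outside the ribosomal proteins, the 365 genes with the run had a median of -0.0031 and the other 6281 one of -0.04.

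**Figure D4:**
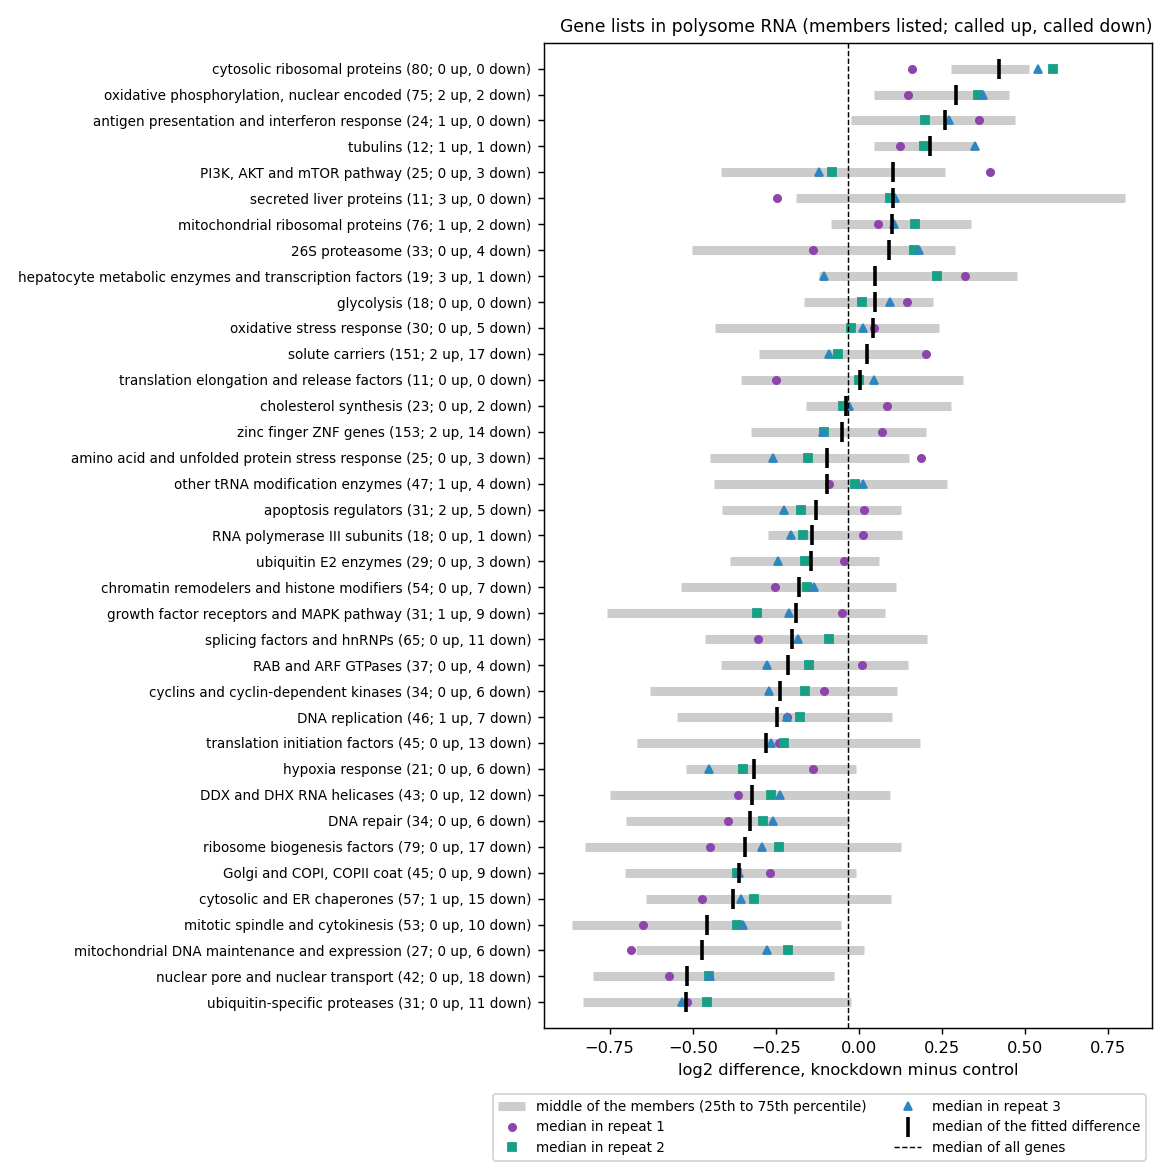
Log2 difference, knockdown minus control, for 37 gene lists, with the number of listed members and of members called up and down beside each name. Grey bars span the 25th to 75th percentile of members, black ticks mark the median of the fitted difference, coloured symbols the median in each repeat, and the dashed line the median of all genes (-0.03). Ribosomal proteins lie highest (0.42) and ubiquitin-specific proteases and nuclear transport lowest (-0.52 each). After quantile normalization ribosomal proteins were at 0.15, ubiquitin-specific proteases at -0.25 and nuclear transport at -0.40. Antigen presentation and interferon genes were then highest (0.38), so the rank of the ribosomal proteins depended on the scaling.

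Nuclear transport was the list with the largest share of called members, 42.9% against 13.8% of all genes. Of 42 nuclear pore and transport genes 18 were called lower and 0 higher (25 lower and 1 higher with the block, 9 lower and 0 higher after quantile normalization), with a median of -0.52. XPOT, the exporter that carries tRNA out of the nucleus, was at 41.6, 35.4 and 33.01 FPKM in the control libraries and 15.6, 18.1 and 16.8 FPKM in the knockdown libraries, a difference of -1.08 (SE 0.14, limma adjusted p = 0.0084). XPO1, the general exporter of proteins with a nuclear export signal, was at 52.2, 37.7 and 36.2 FPKM in the control libraries and 18.9, 19.2 and 17.3 FPKM in the knockdown libraries (-1.13, adjusted p = 0.0112). IPO7, an importin, was at 36.00, 37.5 and 37.9 FPKM in the control libraries and 11.6, 17.8 and 17.2 FPKM in the knockdown libraries (-1.23, adjusted p = 0.0103). The other 15 calls were nucleoporins and karyopherins, from -0.46 for KPNA2 to -1.18 for NUP35, and included the main import receptor KPNB1 (-1.09). These genes are long, with a median genomic span of 58212 bases against 26431 for all genes. Measured against the median of genes of like span, the list median was -0.27.

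Coat proteins and cargo receptors of the secretory path fell in part. Of 45 Golgi and coat genes 9 were called lower and 0 higher (23 lower and 2 higher with the block), a median of -0.36. The calls were 20% of the list, against 12.7% of all genes called lower. The list median was -0.21 after quantile normalization and -0.18 relative to genes of like span. COPB1, a subunit of the COPI coat, was at 35.5, 36.02 and 34.96 FPKM in the control libraries and 13.8, 14.97 and 13.2 FPKM in the knockdown libraries, a difference of -1.28 (SE 0.11, limma adjusted p = 0.00737). LMAN1, a cargo receptor for glycoproteins leaving the endoplasmic reticulum, was at 19.4, 15.6 and 15.3 FPKM in the control libraries and 6.22, 6.72 and 5.52 FPKM in the knockdown libraries (-1.31, adjusted p = 0.0076). SEC24B, a cargo adaptor of the COPII coat, was at 7.31, 6.66 and 6.58 FPKM in the control libraries and 2.48, 2.58 and 2.44 FPKM in the knockdown libraries (-1.16, adjusted p = 0.00737). Of 37 RAB and ARF GTPases 4 were called lower and 0 higher (10 lower and 3 higher with the block), a share near the background, namely RAB18, RAB5A, RAB1A and RAB6A (-1.13, -0.81, -0.72 and -0.61). RAB1A, which acts between the endoplasmic reticulum and the Golgi, was the most abundant of the 3 with the smallest p, at 73.9, 86.8 and 86.3 FPKM in the control libraries and 41.3, 58.3 and 50.4 FPKM in the knockdown libraries.

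Of 151 solute carriers 17 were called lower and 2 higher (34 lower and 10 higher with the block), 12.6% against 13.8% of all genes, and the median was 0.03. Beside SLC39A6, the transporters of neutral amino acids SLC38A1 and SLC38A2 fell: SLC38A2 was at 40.9, 35.7 and 35.5 FPKM in the control libraries and 11.2, 13.9 and 12.7 FPKM in the knockdown libraries (-1.50, adjusted p = 0.00737) and SLC38A1 at 45.6, 43.5 and 44.5 FPKM in the control libraries and 17.3, 18.9 and 17.00 FPKM in the knockdown libraries (-1.28, adjusted p = 0.00737). Both are amino acid importers encoded on chromosome 12. SLC29A4, a monoamine transporter, was called higher, at 3.92, 5.12 and 5.19 FPKM in the control libraries and 11.5, 7.99 and 8.94 FPKM in the knockdown libraries (0.86, adjusted p = 0.0236).

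Chaperones of the cytosol, the endoplasmic reticulum and the mitochondria were among the falls. Of 57 cytosolic and endoplasmic reticulum chaperone list members 15 were called lower and 1 higher (30 lower and 5 higher with the block), a median of -0.38. In all, 28.1% were called, against 13.8% of all genes, and the median relative to genes of like span was -0.23. HSPD1, the mitochondrial chaperonin also kept in this list, was at 438, 406 and 402 FPKM in the control libraries and 179.6, 212 and 207 FPKM in the knockdown libraries, a difference of -1.06 (SE 0.14, limma adjusted p = 0.00838). HSPH1, a nucleotide exchange factor of HSP70, was at 28.4, 20.1 and 18.3 FPKM in the control libraries and 7.54, 5.77 and 5.98 FPKM in the knockdown libraries, and its relative HSPA4L was at 5.91, 4.46 and 4.75 FPKM in the control libraries and 1.80, 2.26 and 1.95 FPKM in the knockdown libraries (-1.003, adjusted p = 0.00877). The inducible HSP90AA1 was at 488, 487 and 485 FPKM in the control libraries and 159, 300.5 and 285 FPKM in the knockdown libraries (-1.02, adjusted p = 0.044), where repeat 1 of the knockdown was lowest. The only member called higher was the small heat shock protein HSPB1, at 1158, 1230.2 and 1262 FPKM in the control libraries and 1936, 1821 and 2076 FPKM in the knockdown libraries (0.67, adjusted p = 0.0487).

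Proteasome genes were centred near 0 and ubiquitin-specific proteases below it. Of 33 proteasome genes 4 were called lower and 0 higher (9 lower and 8 higher with the block), and the median was 0.09 (-0.06 after quantile normalization). The share called was 12.1%, near the 13.8% of all genes. The calls were PSMA4, a core particle subunit, at 141, 151 and 145 FPKM in the control libraries and 64.6, 84.5 and 79.2 FPKM in the knockdown libraries (-0.94, adjusted p = 0.0112), the base ATPase PSMC6 (-1.23), and the assembly chaperones PSMD10 and PSMD5 (-0.50 and -0.54). Of 31 ubiquitin-specific proteases, which remove ubiquitin, 11 were called lower and 0 higher (17 lower and 1 higher with the block, 5 lower and 1 higher after quantile normalization), with a median of -0.52 that was -0.35 with equal medians and -0.25 after quantile normalization. USP14, bound to the proteasome, was at 39.4, 32.7 and 32.1 FPKM in the control libraries and 18.9, 19.3 and 17.8 FPKM in the knockdown libraries (-0.86, adjusted p = 0.0115), and USP33 and USP8 also fell (-0.88 and -0.85). Called members made up 35.5% of these proteases, against 13.8% of all genes. The proteases have a median span of 71810 bases, and their median relative to genes of like span was -0.19. Of 29 ubiquitin-conjugating enzymes 3 were called lower (UBE2J1, UBE2Q2 and UBE2V2, at -0.71, -0.86 and -0.94) and 0 higher, with 10 lower and 2 higher with the block. This was 10.3% of the list, below the share of all genes.

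Mitochondrial genes stood on both sides. Of 27 genes that keep and express mitochondrial DNA 6 were called lower and 0 higher (13 lower and 2 higher with the block, 3 lower and 0 higher after quantile normalization), a median of -0.47. The share called was 22.2%, against 13.8% of all genes. After TFAM and TRMT10C, the mitochondrial elongation factor GFM1 was at 21.3, 22.2 and 22.1 FPKM in the control libraries and 8.21, 11.96 and 11.5 FPKM in the knockdown libraries (-1.002, adjusted p = 0.0131), and the mRNA stability factor LRPPRC averaged 39.1 ± 2.95 FPKM (SD, n = 3) in the control and 17.5 ± 6.14 FPKM (SD, n = 3) in the knockdown libraries (limma -1.17, adjusted p = 0.0328). GFM2 and FASTKD5 completed the calls (-0.90 and -0.55). Of 76 mitochondrial ribosomal proteins 2 were called lower, MRPL19 (-0.85) and MRPS35 (-0.63), and 1 higher, MRPL54 (0.63), with 8 lower and 19 higher with the block. The median was 0.10, and 3.95% were called, against 13.8% of all genes.

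Nuclear genes of oxidative phosphorylation lay above 0 in 57 of 75 cases, with a median of 0.29, and 2 were called higher and 2 lower (37 higher and 4 lower with the block, 0 higher and 1 lower after quantile normalization). The calls were 5.33% of the list against 13.8% of all genes, and the median was 0.47 with equal medians and 0.16 after quantile normalization. COX5B, a cytochrome c oxidase subunit, was at 265, 257 and 273 FPKM in the control libraries and 339.7, 429 and 421 FPKM in the knockdown libraries (0.57, adjusted p = 0.0483), and NDUFA3, a complex I subunit, was called higher too (0.53). NDUFS1, the largest subunit of complex I, was at 21.6, 17.02 and 15.9 FPKM in the control libraries and 11.1, 8.79 and 8.86 FPKM in the knockdown libraries (-0.85, adjusted p = 0.021), and SDHD of complex II also fell (-0.45). The genes of this list are short, with a median span of 10552 bases, and the median relative to genes of like span was 0.17; for the ribosomal proteins, with a median span of 4905 bases, it was 0.20.

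In the cell cycle and DNA lists 17.4% to 18.9% of members were called, against 13.8% of all genes. The calls were falls apart from RFC2, as were 92.1% of calls among all genes. Of 53 mitotic spindle and cytokinesis genes 10 were called lower and 0 higher (27 lower and 8 higher with the block), with a median of -0.46. ECT2, which activates RHOA at the division plane, was at 16.4, 15.6 and 15.02 FPKM in the control libraries and 4.29, 4.83 and 4.18 FPKM in the knockdown libraries, a difference of -1.62 (SE 0.12, limma adjusted p = 0.00737). BUB1B, a spindle checkpoint kinase, was at 14.4, 13.9 and 12.97 FPKM in the control libraries and 5.56, 6.96 and 7.28 FPKM in the knockdown libraries (-0.97, adjusted p = 0.0103), and the condensin II subunit NCAPG2 was at 23.3, 22.1 and 21.5 FPKM in the control libraries and 11.3, 13.1 and 12.7 FPKM in the knockdown libraries (-0.80, adjusted p = 0.0114). Of 34 cyclins and cyclin-dependent kinases 6 were called lower and 0 higher (14 lower and 2 higher with the block). CCNH, the cyclin of the CDK-activating kinase, was at 23.7, 23.2 and 22.4 FPKM in the control libraries and 10.7, 12.4 and 10.02 FPKM in the knockdown libraries (-1.01, adjusted p = 0.00842). CDK6, a G1 kinase, was at 5.74, 5.07 and 5.11 FPKM in the control libraries and 2.36, 2.79 and 2.52 FPKM in the knockdown libraries (-0.83, adjusted p = 0.00925). CDK17, CCNL1 and CCNG1 also fell (-1.05, -0.92 and -0.60).

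Of 34 DNA repair genes 6 were called lower and 0 higher (17 lower and 2 higher with the block), and 28 lay below 0. Their median was -0.33, and -0.18 relative to genes of like span. MSH6, which recognises mismatched bases, was at 36.02, 34.8 and 30.8 FPKM in the control libraries and 12.4, 19.4 and 18.1 FPKM in the knockdown libraries, a difference of -1.01 (SE 0.19, limma adjusted p = 0.0183), and its relative MSH3 fell too (-0.72). RAD51AP1 and RAD54B, which act in homologous recombination, were also called lower (-1.15 and -1.10). Of 46 DNA replication genes 7 were called lower and 1 higher (17 lower and 3 higher with the block, 5 lower and 0 higher after quantile normalization). ORC4, of the origin recognition complex, was at 10.1, 10.7 and 10.9 FPKM in the control libraries and 4.17, 5.18 and 4.48 FPKM in the knockdown libraries (-1.04, adjusted p = 0.0076), and the primase subunit PRIM1 was at 29.8, 29.8 and 29.04 FPKM in the control libraries and 13.8, 16.4 and 13.8 FPKM in the knockdown libraries (-0.97, adjusted p = 0.0084). MCM10, which helps open the origin, fell as well (-0.96, adjusted p = 0.0114), and the clamp loader subunit RFC2 was the member called higher (0.43).

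RNA helicases were called lower in 27.9% of cases and splicing factors in 16.9%, against 12.7% of all genes. Of 43 DDX and DHX helicases 12 were called lower and 0 higher (19 lower and 1 higher with the block, 6 lower and 0 higher after quantile normalization), a median of -0.32. DHX15, which takes the spliceosome apart, was at 45.1, 36.1 and 36.01 FPKM in the control libraries and 17.97, 15.4 and 14.6 FPKM in the knockdown libraries (-1.24, adjusted p = 0.0076). DHX32 was at 16.9, 15.6 and 14.4 FPKM in the control libraries and 8.91, 9.07 and 9.17 FPKM in the knockdown libraries (-0.72, adjusted p = 0.0142). Of 65 splicing factors and hnRNPs 11 were called lower and 0 higher (19 lower and 11 higher with the block, 7 lower and 0 higher after quantile normalization), a median of -0.20. HNRNPR was at 70.8, 59.8 and 61.4 FPKM in the control libraries and 30.7, 17.8 and 18.9 FPKM in the knockdown libraries (-1.51, adjusted p = 0.0101). SF3B1, a core subunit of the U2 particle, was at 29.3, 20.5 and 21.1 FPKM in the control libraries and 7.92, 10.03 and 9.36 FPKM in the knockdown libraries (-1.27, adjusted p = 0.00989). HNRNPDL was at 51.5, 57.6 and 60.4 FPKM in the control libraries and 26.5, 30.9 and 29.5 FPKM in the knockdown libraries (-0.94, adjusted p = 0.00891).

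Of 54 chromatin regulators 7 were called lower and 0 higher (18 lower and 1 higher with the block, 3 lower and 0 higher after quantile normalization), close to the background share. SMARCA5, a nucleosome-sliding ATPase, was at 12.6, 15.6 and 15.9 FPKM in the control libraries and 3.89, 6.50 and 6.41 FPKM in the knockdown libraries (-1.27, adjusted p = 0.0129). EZH2, the methyltransferase of Polycomb complex PRC2, was at 20.9, 20.6 and 19.4 FPKM in the control libraries and 12.7, 12.3 and 13.2 FPKM in the knockdown libraries (-0.63, adjusted p = 0.0168). Their median of -0.18 was 0.04 relative to genes of like span. Of 153 ZNF zinc finger genes 14 were called lower and 2 higher (34 lower and 18 higher with the block). The share called was 10.5%, against 13.8% of all genes. The median of -0.05 became 0.12 with equal medians and 0.16 after quantile normalization. After quantile normalization 17 ZNF genes were called higher and 5 lower, so the direction of this family follows the scaling. Of all genes, 3.73% were then called higher and 7.44% lower. ZNF227 was at 7.11, 6.28 and 6.04 FPKM in the control libraries and 3.36, 3.21 and 3.11 FPKM in the knockdown libraries (-0.82, adjusted p = 0.00987).

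The called rises were fewer and included genes of liver function. AZGP1 (chr7:99966730-99976031), a secreted zinc-binding glycoprotein, was at 1.53, 1.91 and 1.96 FPKM in the control libraries and 6.90, 10.8 and 10.8 FPKM in the knockdown libraries, a 5.27-fold higher mean and a difference of 1.88 (SE 0.19, limma adjusted p = 0.00737). AMBP (chr9:114060127-114078300), the precursor of alpha-1-microglobulin and bikunin, was at 2.80, 3.39 and 3.06 FPKM in the control libraries and 6.91, 12.2 and 10.5 FPKM in the knockdown libraries, a difference of 1.39 (SE 0.21, limma adjusted p = 0.0112). HABP2 (chr10:113550831-113589602), a plasma serine protease, was at 3.80, 3.49 and 4.17 FPKM in the control libraries and 11.3, 10.8 and 11.6 FPKM in the knockdown libraries, a difference of 1.34 (SE 0.12, limma adjusted p = 0.00737). The groups were well separated in all 3, and repeat 1 rose least in AZGP1 and AMBP. These 3 were the called members of 11 secreted liver proteins (3 higher and 1 lower with the block). The list median of 0.10 (-0.25, 0.10 and 0.11 in repeats 1, 2 and 3) was near that of all genes. The 3 called members made up 27.3% of the list, against 1.09% of all genes called higher and 13.8% called in either direction.

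Of 19 hepatocyte enzymes and transcription factors 3 were called higher and 1 lower (8 higher and 3 lower with the block). The share called was 21.1%, against 13.8% of all genes, and the list median was 0.05. ACY3, an aminoacylase, was at 2.00, 2.45 and 2.40 FPKM in the control libraries and 7.73, 6.75 and 6.46 FPKM in the knockdown libraries (1.28, adjusted p = 0.00737). HPD, an enzyme of tyrosine breakdown, was at 9.32, 5.53 and 5.82 FPKM in the control libraries and 16.1, 11.1 and 13.4 FPKM in the knockdown libraries (0.90, adjusted p = 0.0439). PRODH2, a hydroxyproline dehydrogenase, was at 1.94, 3.14 and 3.03 FPKM in the control libraries and 4.13, 7.60 and 7.62 FPKM in the knockdown libraries (0.98, adjusted p = 0.0447). ABCC2, the canalicular export pump for conjugates, was the member called lower, at 50.9, 37.3 and 34.5 FPKM in the control libraries and 16.5, 17.6 and 16.9 FPKM in the knockdown libraries (-1.20, adjusted p = 0.00987). The hepatocyte transcription factor HNF4A was at 20.3, 14.96 and 15.6 FPKM in the control libraries and 24.9, 14.6 and 14.02 FPKM in the knockdown libraries (adjusted p = 0.944), with overlapping groups.

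The largest rise on the log2 scale was that of TUBB6, a beta-tubulin, at 1.81, 1.08 and 1.23 FPKM in the control libraries and 3.20, 14.8 and 14.5 FPKM in the knockdown libraries, a difference of 2.10 (SE 0.51, limma adjusted p = 0.0394). It was near the floor of the table in control cells, and repeat 1 of the knockdown was far below the other 2. Of 12 tubulins 1 other was called, TUBD1, lower (-0.53), and the median was 0.21. The 2 calls were 16.7% of the list, against 13.8% of all genes, with 4 higher and 1 lower with the block. PSMB9, a subunit of the immunoproteasome, was at 3.52, 4.41 and 3.78 FPKM in the control libraries and 7.02, 11.03 and 8.61 FPKM in the knockdown libraries (0.996, adjusted p = 0.0163). It was the 1 called member of 24 antigen presentation and interferon genes (11 higher and 2 lower with the block), whose median was 0.26 and 0.07 relative to genes of like span. The call was 4.17% of the list, against 13.8% of all genes. The transcriptional coactivator POU2AF1 was at 6.08, 10.7 and 11.4 FPKM in the control libraries and 16.2, 21.8 and 22.1 FPKM in the knockdown libraries (1.05, adjusted p = 0.0384), and SPANXC, one of several near-identical X-linked genes whose reads may be shared, at 35.8, 47.4 and 35.5 FPKM in the control libraries and 61.2, 95.4 and 92.8 FPKM in the knockdown libraries (1.04, adjusted p = 0.0248). The galectin LGALS9, the acetyl-CoA synthetase ACSS1 and the vesicle tethering subunit TRAPPC6A completed the 12 largest rises (0.86, 0.86 and 0.93).

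Apoptosis regulators were called in both directions: of 31, 5 lower and 2 higher (11 lower and 6 higher with the block, 3 lower and 1 higher after quantile normalization). The share called was 22.6%, against 13.8% of all genes. The pro-apoptotic BAX was at 152, 167 and 187 FPKM in the control libraries and 244, 242 and 266 FPKM in the knockdown libraries (0.57, adjusted p = 0.037), and the pro-apoptotic BIK rose as well (0.62, adjusted p = 0.0239). MCL1, an anti-apoptotic BCL2 relative, was at 56.7, 57.96 and 60.01 FPKM in the control libraries and 39.3, 39.9 and 36.5 FPKM in the knockdown libraries (-0.58, adjusted p = 0.0188). PDCD4, PMAIP1 and cytochrome c (CYCS) fell too (-0.58, -0.86 and -0.54). The list median of -0.13 was 0.05 with equal medians.

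In the PI3K, AKT and mTOR list, 3 of 25 were called lower and 0 higher (7 lower and 5 higher with the block). This was 12% of the list, near the 12.7% of all genes called lower. The list median was 0.10, with 14 members above 0 and 11 below. The kinase subunit PIK3CB was at 14.4, 11.5 and 11.7 FPKM in the control libraries and 6.04, 6.06 and 5.13 FPKM in the knockdown libraries (-1.004, adjusted p = 0.00999), and the lipid kinase PIK3C2A fell too (-1.18). Of 25 genes of the amino acid and unfolded protein stress response 3 were called lower and 0 higher (7 lower and 2 higher with the block): SEL1L and EDEM1, which act in degradation from the endoplasmic reticulum (-0.95 and -0.79), and PPP1R15B, a phosphatase subunit for eIF2 (-0.71). That share was again 12%, near that of all genes, and the list median was -0.09 (0.08 with equal medians).

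Of 23 cholesterol synthesis genes 2 were called lower, IDI1 (-0.75) and HMGCS1 (-0.99), with 5 lower and 1 higher with the block. The share called was 8.70%, against 13.8% of all genes. None of 18 glycolytic genes was called (3 lower and 3 higher with the block, 1 lower and 1 higher after quantile normalization). LDHB was at 897, 921 and 884 FPKM in the control libraries and 514, 719.9 and 642 FPKM in the knockdown libraries (adjusted p = 0.0943; 0.00963 with the block), and ALDOC at 5.26, 4.87 and 4.20 FPKM in the control libraries and 6.27, 6.60 and 6.10 FPKM in the knockdown libraries (adjusted p = 0.112; 0.0425 with the block). The glycolysis median was 0.05 and -0.08 after quantile normalization, against medians of -0.03 and 0.07 for all genes.

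The difference followed the length of the gene on the chromosome. In 10 bins of genomic span, exons and introns together, the median difference went from 0.27 in the shortest (557 to 5040 bases) to -0.37 in the ninth and -0.33 in the longest. The share called lower rose from 1.49% in the shortest bin to 24.8% in the longest, against 12.7% of all genes, and the share called higher went from 2.35% to 0.248%. All 3 repeats showed this direction, with medians of 0.36, 0.20 and 0.25 in the shortest bin and -0.45, -0.29 and -0.31 in the longest. Spearman's rho across 8068 genes was -0.455 for span and 0.286 for mean level, and the 2 features were themselves related (rho -0.344); genes share these libraries and are not independent. In 10 bins of mean FPKM the share called lower was 13.6% in the lowest, 19.6% in the second and 2.72% in the highest. The median difference went from -0.11 in the lowest level bin to 0.26 in the highest, but after quantile normalization these were 0.08 and 0.07, while the medians of the shortest and longest span bins were then 0.27 and -0.15. Whether span, level or another property carries the relation was not tested.

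**Figure D5:**
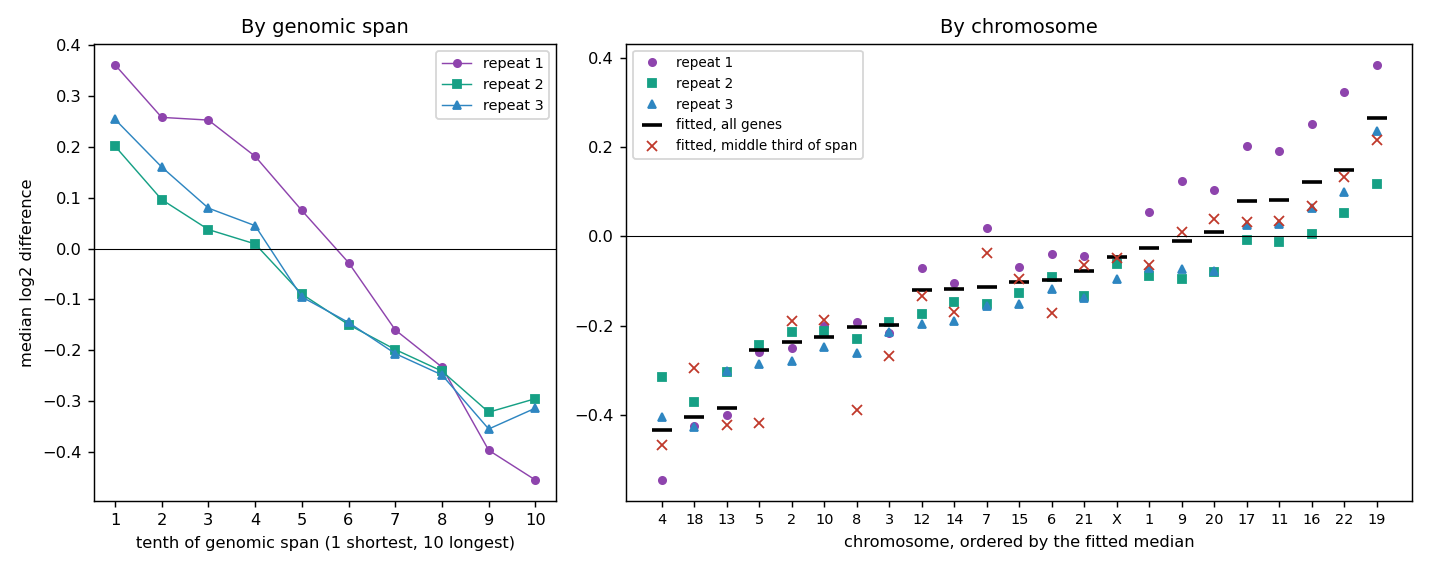
Left, the median log2 difference (knockdown minus control) in each repeat for 10 bins of genomic span from shortest to longest. Right, the medians by chromosome, with coloured symbols for the repeats, black bars for the fitted difference of all genes and crosses for genes of 15120 to 43956 bases; medians run from -0.43 on chromosome 4 to 0.27 on chromosome 19.

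Chromosomes differed too. The median difference was lowest on chromosomes 4 (-0.43, 234 genes), 18 (-0.41, 99 genes) and 13 (-0.38, 66 genes), and highest on chromosomes 19 (0.27, 618 genes) and 22 (0.15, 223 genes). On chromosome 4, 25.2% of genes were called lower and 0.855% higher; on chromosome 19, 1.78% were called lower and 2.75% higher. Chromosomes 4, 18 and 13 were the lowest and 19 and 22 the highest in each repeat, with chromosome 18 below chromosome 4 in repeats 2 and 3. The medians per repeat were -0.55, -0.32 and -0.41 on chromosome 4 and 0.39, 0.12 and 0.24 on chromosome 19. Chromosome 4 genes are long, with a median span of 45332 bases against 14407 on chromosome 19. Among genes of 15120 to 43956 bases alone, the medians were -0.47 on chromosome 4 (72 genes) and 0.22 on chromosome 19 (227 genes), so the distance between these 2 chromosomes was nearly as large within that range of span. After quantile normalization the medians over all genes of the 2 chromosomes were -0.28 and 0.32.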

How the data were processed

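The authors deposited gene values in FPKM for the 6 polysome libraries used here (3 control, 3 knockdown) and for 6 input libraries. Per the submitters' processing notes, the tools were Bowtie2 and HTSeq and the build was GRCh38; neither version nor role is stated. The annotation, the polysome fractions taken and the FPKM calculation were not found in any label or header, and read depth is unknown, so no counting error can be attached. The labels' protocols name a stranded mRNA library kit. Repeat 1 columns are written with other formatting than those of repeats 2 and 3.

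From these values, log2(FPKM + 1) was fitted with limma 3.58.1 (R 4.3.3), group means over the 6 libraries, empirical Bayes with an intensity trend, two-sided, with calls at adjusted p 0.05. No filter was applied beyond the table's own floor of 1 FPKM. Fold changes on this scale understate changes of low genes. The fit was tested on simulated data. The simulated libraries were independent, unlike the close repeats 2 and 3 here, so that test cannot show how this closeness affects the calls. Repeat numbers come from the sample titles. Deviations from the group mean correlated at 0.775, 0.674 and 0.769 for libraries of the same number, so by the rule used the numbers pair the samples. The main fit leaves this pairing out, because the labels do not say that a repeat number marks a shared culture or day. Deviations of repeat 2 in one group and repeat 3 in the other also correlated (0.751 and 0.602), so the data do not tell repeats 2 and 3 apart. The block is therefore given beside the unblocked list counts, and for genes named here whose call it changes.

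The named genes comprise 5 set by hand (METTL1, WDR4, CCNA2, EGFR, VEGFA), the 12 largest rises and 12 largest falls among called genes with a mean of at least 5 FPKM and no overlap, and from each list up to 3 called members with the smallest p, or at most 2 where none was called. Other genes are named as called members of a list or were picked after their values were seen (FAU, RPL36, RPL29 and RPS4X by smallest p, HNF4A and NCL). Some genes chosen by these rules are not reported here, though they stay in the counts. The members and the 43 gene lists, 40 with listed members, were chosen with earlier results of these data known. Lists of mitochondrially encoded mRNAs, endothelial and fibroblast markers had 0 members in the table. The leukocyte markers listed, CD68 and CD79A, were not called (adjusted p = 0.73 and 0.483). Positions, spans and start windows are RefSeq's (GRCh38.p14), matched by symbol for 8068 genes (99.9%). Alternatives were other scalings, pseudocounts, filters, sets of libraries and the block; leaving a repeat out of both groups, the block with quantile normalization, medians relative to genes of like span, and any RefSeq start in place of the first listed were added after seeing the data.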

Additional observations from a re-analysis of the deposited data

How the results depend on the processing

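Of the number of genes called (1117), the share of calls that are lower (92.1%), the number of genes whose groups do not overlap (3247) and the number of lists with at least 3 called members (30), all stayed within 1.5 times with a pseudocount of 0.1, a mean of at least 5 FPKM and no intensity trend, where 1111, 921 and 1120 genes were called. The number called was 657 with equal medians, 0 with all 12 MHCC97H libraries in 1 fit (609 at an unadjusted p under 0.05 in limma, smallest adjusted p 0.0956) and 0 with repeats 2 and 3 averaged, and the lists with 3 calls were then 0 and 0. With the replicate block, pairing libraries by repeat number, it was 3392, and 66.5% of calls were lower. The block added calls for METTL1, ETF1, EEFSEC, LDHB, ALDOC and RPS19 among the genes named in the text and removed none of the named genes' calls. The share lower was 66.2% with equal medians and 66.6% after quantile normalization. Leaving out 1 library gave 0 to 2551 called genes, 74.2% to 97.6% of calls lower, 3360 to 5595 genes without overlap and 0 to 37 lists. Leaving repeat 1 out of both groups gave 5084 called genes (63.8% lower) and 6504 without overlap, and leaving out repeat 2 or repeat 3 gave 0 called genes (1290 and 1055 at an unadjusted p under 0.05) and 0 lists. With 2 libraries a group, the close repeats 2 and 3 set the spread when repeat 1 is left out. The block with quantile normalization gave 3751 called genes, 46.6% of them lower. Among 119 named genes, the 2131 values under other settings kept their direction except for 5, none past the threshold: CD79A was 0.0020 with equal medians, 0.081 after quantile normalization and 0.081 with the block and quantile normalization, and CD68 ranged from -0.029 (without control repeat 1) to 0.17 when 1 library was left out and was -0.11 with repeat 1 left out of both groups. Of the others, 852 lost their call and 33 gained one; the cause was not tested. Depth is unknown, so the smallest difference each library can show is not known either.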
